A study of Mus musculus with 6 samples.

Results

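The enzymes of the urea cycle, with the enzymes that feed nitrogen into it, were followed on 6 Affymetrix mouse expression arrays of liver RNA. The members were 10 genes fixed by name: Cps1, Otc, Ass1, Asl, Arg1 and Nags of the cycle itself, and Glud1, Got1, Gpt and Gpt2 around it. Every probe set that the platform annotation gives 1 of these symbols and no other was taken, which made 17 of the 45101 probe sets on the array. All 10 genes and all 17 probe sets lay above the filter on dim signal.

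The arrays came from 3 Mig-6 d/d livers and 3 Mig-6 f/f livers. Both genotypes were male mice on a mixed background, 8 weeks old, kept on standard chow and fasted for 24 h before the liver was taken. Errfi1 encodes Mig-6, which is induced by EGF receptor signalling and dampens it. The labels give neither the Cre behind the d/d genotype nor the deleted part of the gene, and nothing in them ties each array to its own animal, so the p-values cover only the spread among these 6 samples.

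The urea cycle turns ammonia into urea for excretion, and it runs in full in hepatocytes, mostly those around the portal vein. It begins inside mitochondria, where Cps1 joins ammonia with bicarbonate and Otc passes the product to ornithine. It goes on in the cytosol, where Ass1 adds aspartate, which brings the other nitrogen atom, Asl splits off fumarate and leaves arginine, and Arg1 releases urea and returns ornithine. In fasting the liver breaks down amino acids for glucose, and the cycle disposes of their nitrogen.

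Of the 10 enzymes, Got1 and Asl lay apart between the genotypes, both lower in d/d livers, and the other 8 lay within 0.21 of 0 on the log2 scale. Got1 averaged 0.473 times its f/f intensity in d/d livers, and Asl 0.668 times. Neither passed an adjusted p of 0.05 over all genes (limma, Benjamini-Hochberg adjusted p = 0.0673 for Got1 and 0.121 for Asl). Thus 0 of the 10 members passed, where 13 of the 13718 genes tested did (0.0948%). At an adjusted p of 0.1 Got1 passed, as did 0.153% of all genes. At an unadjusted p under 0.05 there were 2 members, both lower in d/d, against 3.07% of all genes in that direction. After normalization, on the probe sets that stand for the genes, these 2 were also the members whose groups did not overlap, all d/d arrays below all f/f arrays, as for 6.79% of all genes. The opposite separation, d/d above f/f, held for 0 members and for 1084 of the 13718 genes tested. The median difference of the members was 0.013, and that of all genes tested -0.015. Differences are d/d minus f/f in log2(intensity + 16) after quantile normalization, with the standard error of limma and n = 3 per genotype, and this scale shrinks the differences of dim genes.

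**Figure D1:**
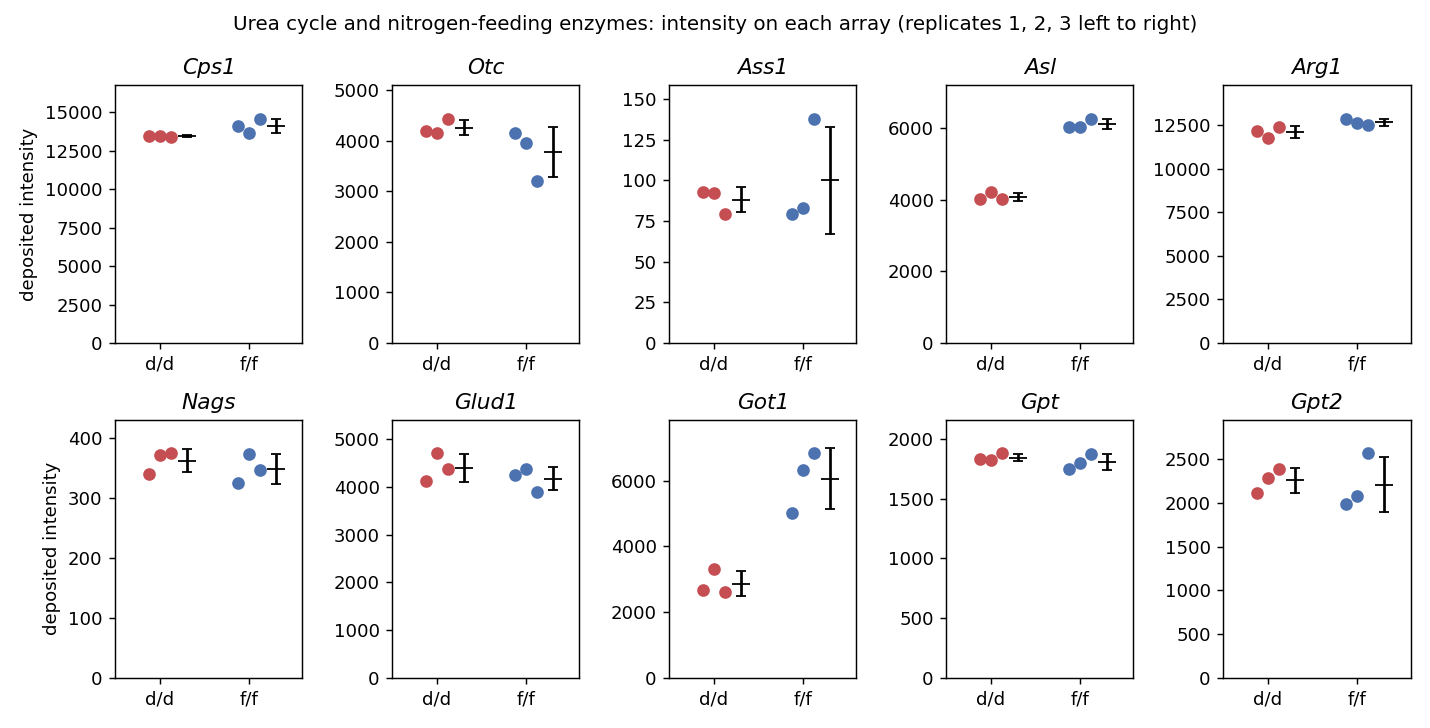
Deposited intensity (linear axis from 0) of the probe set that stands for each of the 10 enzymes on the 3 d/d arrays (red, left) and the 3 f/f arrays (blue, right), with mean and SD in black. The d/d arrays lie below the f/f arrays for Asl (4012 to 4212 against 6019 to 6267) and Got1 (2599.65 to 3321 against 5033 to 6837), those of Cps1 and Arg1 are separate by a narrow margin, and the points of Otc, Ass1, Nags, Glud1, Gpt and Gpt2 overlap.

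Errfi1 read 68.0, 61.8 and 59.6 in d/d livers, against 5371, 5424 and 5686 in f/f livers, which matches the labels (limma, Benjamini-Hochberg adjusted p = 4.91e-08). On f/f replicate 3, an array unlike the rest, the 18S ribosomal control probe sets averaged 3807, against 218 to 455 on the other 5 arrays. Over the genes tested its mean correlation with them was 0.952, where theirs were 0.974 to 0.978. Hepatocyte markers summed to intensities of 140780 to 143570 in d/d livers and 139180 to 142900 in f/f livers over 7 genes, all above the dim filter. Kupffer cell markers, 8 of 8 above the filter, summed to 1949 to 2524 in d/d livers and 2197 to 3232 in f/f livers, with the highest sum on f/f replicate 3. Bile duct markers were faint, with Krt7, Krt19 and Cftr under the filter. Of 7 listed markers of intestine or kidney, 3 lay above the dim filter, and the summed intensity of the 6 with a named probe set was 714 to 736 in d/d livers and 837 to 1103 in f/f livers, with Slc12a1, Umod and Vil1 under the filter. Fabp2, a fatty acid binding protein of intestine, had a log2 difference of -0.51 ± 0.14 (limma, Benjamini-Hochberg adjusted p = 0.348). The part of such RNA in the differences of Got1 and Asl was not tested. In bulk liver, fewer cells of a type and less RNA per cell cannot be told apart.

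Got1 is the cytosolic aspartate aminotransferase, which interconverts glutamate and aspartate and takes part in the malate-aspartate shuttle. Its 1 probe set, 1450970_at, read 2686, 3321 and 2599.65 in d/d livers, against 5033, 6330.47 and 6837 in f/f livers. The highest d/d array lay well below the lowest f/f array, and the f/f arrays spread widely, with replicate 3 the highest of all 6. The log2 difference was -1.02 ± 0.14, with a 95% interval of -1.35 to -0.70. Without f/f replicate 3 it was -0.94 ± 0.14 and passed (limma, Benjamini-Hochberg adjusted p = 0.0325), as did 85 of the 13718 genes tested. Over 17 alternative settings it stayed between -1.13 and -0.94, and 6 of them took it past the threshold while 11 did not. Among the 6 was array weights (limma, Benjamini-Hochberg adjusted p = 0.00736). There f/f replicate 3 was weighted 0.178, and 215 of all genes passed. Adjusted p over these settings ran from 0.00736 to 0.391 in limma after Benjamini-Hochberg, highest without d/d replicate 1. With the replicate number as a block it was 0.179.

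Got2 encodes the mitochondrial enzyme of the same reaction and stood outside the member list. It read 3689, 3929.95 and 3758 in d/d livers, against 3780, 3822 and 4165 in f/f livers. The groups overlapped, and the log2 difference was 0.0043 ± 0.099, with a 95% interval of -0.22 to 0.23. Whether the difference of Got1 departs from that of Got2 was not tested.

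The sequence before the start of Got1 is shown because it is the member with the largest difference, and its window is crowded with CCAAT boxes, short elements that the factor NF-Y binds. It comes from RefSeq on GRCm38.p6 at chr19:43524606-43524855, minus strand, and holds the 250 bases before the annotated start, 5′ to 3′, with CCAAT and its reverse complement ATTGG in capitals.
Got1: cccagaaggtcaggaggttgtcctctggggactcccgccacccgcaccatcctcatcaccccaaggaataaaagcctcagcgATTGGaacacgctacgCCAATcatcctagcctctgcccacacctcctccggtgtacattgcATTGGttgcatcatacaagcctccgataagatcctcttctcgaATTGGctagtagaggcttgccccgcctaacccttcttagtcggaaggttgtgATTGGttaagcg
The motif CCAAT, read on both strands, occurs 5 times in this window, beginning 168, 152, 107, 64 and 12 bases before the start, and 1 of the 5 is CCAAT as printed and 4 are ATTGG. At least 1 match was found in 33.8% of 32851 promoter windows of the same length, and 5 or more in 0.213%. The cut of 5 is the count of this same window, so the share is descriptive and tests no link with the difference of Got1. Of the 10 members, 6 had a window, and Otc, Ass1, Nags, Glud1 and Gpt2 had 0 matches. No window was available for Cps1, Asl, Arg1 and Gpt. Asl, the other member lower in d/d livers, could therefore not be compared. The cyclic AMP response element TGACGTCA, found in 1.55% of windows, and the forkhead motif TGTTTAC, in 3.17%, had 0 matches in all 6 windows, both strands read. The E-box CACGTG, in 6.02% of windows, had 1 match in Ass1 and 0 in the other 5. A match or its lack describes these letters only, and these arrays measure no factor's binding.

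Asl, argininosuccinate lyase, splits argininosuccinate into arginine and fumarate. Its probe set 1448350_at read 4019.52, 4212 and 4012 in d/d livers, against 6042, 6019 and 6267 in f/f livers. The groups were widely separated and tight, with SDs of 2.78% of the mean in d/d livers and 2.24% in f/f livers. The log2 difference was -0.54 ± 0.098, with a 95% interval of -0.77 to -0.32. It ran only from -0.58 to -0.53 over the 17 settings, and without f/f replicate 3 it was -0.54 (limma, Benjamini-Hochberg adjusted p = 0.0545). It passed in 2 settings, array weights (adjusted p = 0.0174) and eBayes with trend and robust (adjusted p = 0.0201), and adjusted p ran from 0.0174 to 0.591 over all 17 in limma after Benjamini-Hochberg. Over all genes 215 passed with array weights and 21 with trend and robust. The size of the difference hardly moved with the setting, while its place relative to the threshold did. Asl and Got1 each rest on a lone probe set, and the groups are of equal size. A change of dim filter, probe set choice or replicate block, or trend and robust, therefore could not move either difference. Those settings left both as in the fit as reported.

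**Figure D2:**
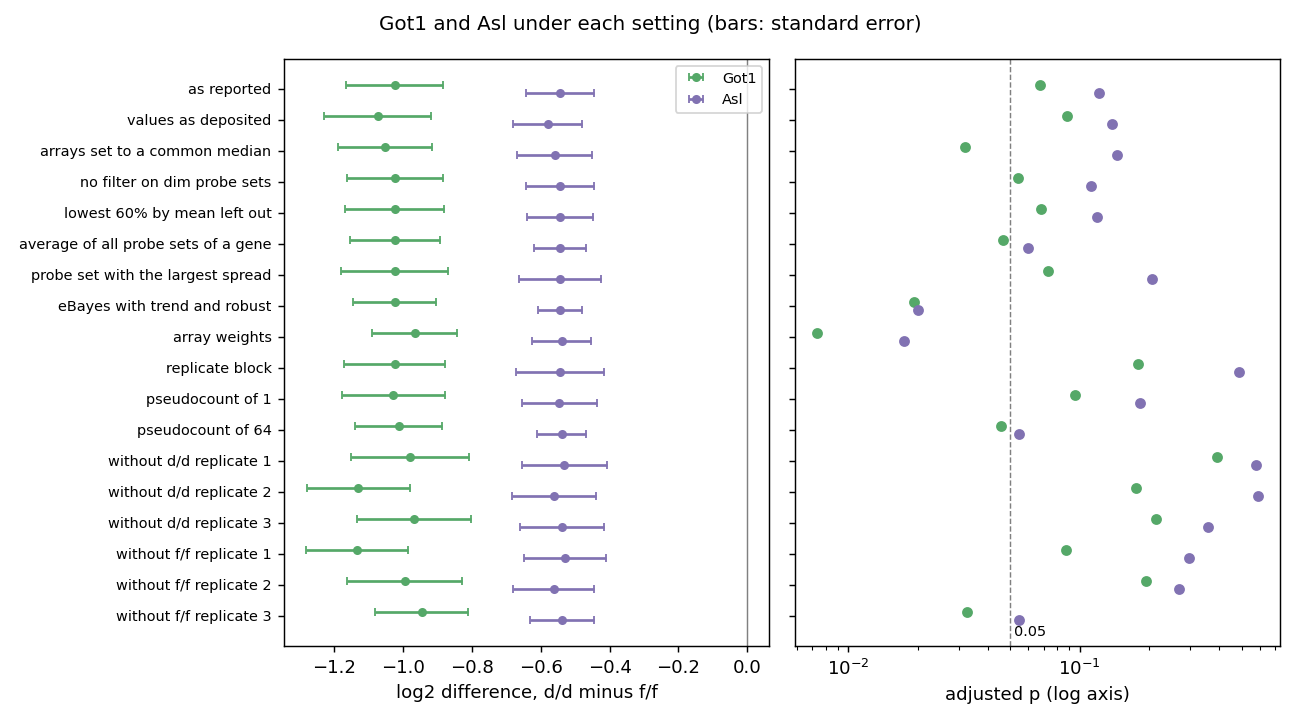
Log2 difference with standard error (left) and adjusted p on a log axis (right) for Got1 (green) and Asl (purple), in the fit as reported and under 17 alternative settings listed down the page. All differences lie below 0, Got1 between -1.13 and -0.94 and Asl between -0.58 and -0.53, while the adjusted p falls on both sides of the dashed line at 0.05 for each gene.

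Ass1, argininosuccinate synthetase, makes the compound that Asl splits. Its single-symbol probe set 1459937_at was dim and read 92.9, 92.1 and 79.6 in d/d livers, against 79.5, 83.0 and 138 in f/f livers. The groups overlapped, and the one high value was that of f/f replicate 3. The log2 difference was -0.11 ± 0.15, and its sign turned without that array (0.063). Another probe set carries the symbol Ass1 together with Gm5424, so its signal was assigned to neither gene, and the level of Ass1 rests here on a dim probe set.

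Cps1, carbamoyl phosphate synthetase 1, catalyses the committed step of the cycle. Its probe set read 13499, 13498 and 13382 in d/d livers, against 14151, 13673 and 14604 in f/f livers. As deposited, all d/d values lay below all f/f values, with means of 13460 ± 67.3 and 14142 ± 466 (SD, n = 3 each), a ratio of 0.952. After quantile normalization the groups overlapped, and the log2 difference was -0.061 ± 0.10, with a 95% interval of -0.29 to 0.17.

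Arg1, arginase 1, closes the cycle by releasing urea. It read 12164, 11737 and 12389.77 in d/d livers, against 12879, 12613 and 12507 in f/f livers. These values too were separate as deposited, at a ratio of 0.955 between the means, and overlapped after normalization. The log2 difference was -0.035 ± 0.10 (95% interval -0.27 to 0.20), and its sign turned without f/f replicate 1 (0.012).

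Otc, ornithine transcarbamylase, had 3 probe sets. The highest, 1436615_a_at, read 4197, 4141 and 4434 in d/d livers, against 4156, 3953 and 3209 in f/f livers. The next read 3347, 3097 and 3345 in d/d livers, against 3167, 2969 and 2296 in f/f livers. In both, f/f replicate 3 was the lowest array, f/f replicate 2 also lay below all d/d arrays, and f/f replicate 1 lay within their range. The log2 differences were 0.21 ± 0.13 and 0.26 ± 0.14, and 1436615_a_at gave 0.088 without f/f replicate 3. The dimmest probe set, with 111 ± 8.51 in d/d livers and 110.26 ± 17.0 in f/f livers (SD, n = 3 each), had 0.034 ± 0.16.

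Nags makes N-acetylglutamate, without which Cps1 is inactive. It read 340.3, 372 and 374 in d/d livers, against 325, 374 and 346 in f/f livers. The values overlapped throughout, with a log2 difference of 0.066 ± 0.11 and a 95% interval of -0.18 to 0.31.

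Among the enzymes that feed the cycle, Glud1, glutamate dehydrogenase, frees ammonia from glutamate in mitochondria. Its higher probe set read 4117, 4706 and 4381 in d/d livers, against 4259, 4371 and 3895 in f/f livers, and the other 3952, 4068 and 3999 in d/d livers, against 3784, 4015 and 3477 in f/f livers. Replicate 3 was the lowest f/f array in both. As deposited the groups overlapped on both probe sets, and after normalization all d/d arrays lay above all f/f arrays on the lower one, 1448253_at. Of the 13718 genes tested, 1084 were separate in that direction. The log2 differences were 0.099 ± 0.11 and 0.12 ± 0.10, and the higher probe set gave 0.036 without f/f replicate 3.

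Gpt, the cytosolic alanine aminotransferase, takes part in moving the nitrogen of alanine to glutamate. Its probe set 1426502_s_at read 1832, 1820.33 and 1878 in d/d livers, against 1745, 1799 and 1873 in f/f livers. The values overlapped closely, with a log2 difference of 0.061 ± 0.10 and a 95% interval of -0.17 to 0.29. The other, dimmer probe set of Gpt had -0.059 ± 0.11, so their signs differed.

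Gpt2, the mitochondrial alanine aminotransferase, had 4 probe sets, and f/f replicate 3 was the highest array on all 4. The highest, 1455007_s_at, read 2109, 2281 and 2392 in d/d livers, against 1988, 2077 and 2568 in f/f livers. Its log2 difference was 0.084 ± 0.13, and 0.20 ± 0.098 without f/f replicate 3. The other 3 probe sets had -0.12 ± 0.17, -0.065 ± 0.15 and -0.016 ± 0.21, so no direction was shared by the 4.

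**Figure D3:**
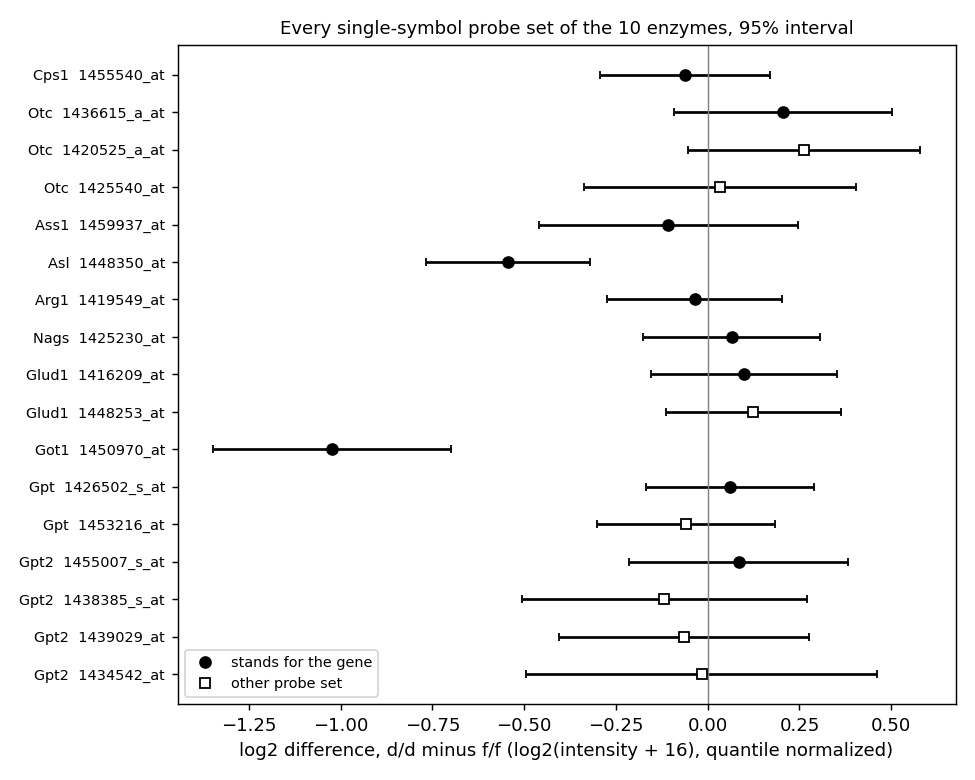
Log2 difference, d/d minus f/f, with its 95% interval for all 17 probe sets of the 10 enzymes, filled circles for the probe set that stands for a gene and open squares for the others. The intervals of Got1 (-1.35 to -0.70) and Asl (-0.77 to -0.32) lie below 0, and those of the other 15 probe sets include 0.

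Tested probe set by probe set, 0 of the 17 passed, where 17 of 22688 probe sets did (0.0749%, limma after Benjamini-Hochberg). The 8 members other than Got1 and Asl each had a 95% interval that included 0, the lowest bound being -0.46 for Ass1 and the highest 0.50 for Otc. Array f/f replicate 3 was the highest or the lowest of the 6 on 12 of the 17 probe sets, more than any other array, of which f/f replicate 1 came next with 9. The 12 include every probe set of Gpt2, Otc and Glud1, and probe sets of the same gene are not independent. On 14 of the 17 the SD was a smaller share of the mean in d/d livers than in f/f livers, and the part of f/f replicate 3 in that spread was not tested. Neither count was set beside its share over all probe sets.

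Got1 and Asl are both cytosolic. This grouping was made after the values were seen and is given as a description only. The 5 members of the cytosol, Ass1, Asl, Arg1, Got1 and Gpt, had a median log2 difference of -0.11 with 4 negative. That median is the value of Ass1 on its dim probe set, which turned to 0.063 without f/f replicate 3. Arg1, also among the 4, had -0.035 and turned to 0.012 without f/f replicate 1. The 5 members of mitochondria, Cps1, Otc, Nags, Glud1 and Gpt2, had a median of 0.084 with 1 negative. Without f/f replicate 3 the medians were -0.055 with 3 negative in the cytosol and 0.058 with 1 negative in mitochondria. Over the 6 arrays Got1 and Asl correlated at r = 0.96 on the log2 scale, with the genotype difference included in that value.

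For each of 5 cycle enzymes the genes with the most similar profile over the 6 arrays were looked up. Those of Asl were Mfsd2a (r = 0.997) and Errfi1 (r = 0.992), values that include the genotype difference, which for Errfi1 is that of the deleted gene. Those of Arg1 were Lap3 (r = 0.989) and Fkbp7 (r = 0.978). Cps1 was closest to Pclaf (r = 0.976) and Hif3a (r = 0.972). Otc was closest to Herc2 (r = 0.997) and Rab5c (r = 0.996), and Ass1 to Myrf (r = 0.998) and Ttbk1 (r = 0.996). With 6 arrays high values are easily reached: 988 genes correlated with Otc above 0.9, and 1182 with Ass1, the 2 profiles on which f/f replicate 3 was the extreme array, against 162 with Asl, 68 with Arg1 and 48 with Cps1.

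The carriers and the bicarbonate supply of the cycle had 9 of 10 listed genes tested, and 0 passed in either direction, with 3 at an unadjusted p under 0.05, where 7.84% of all genes lay under it. Slc25a22, a mitochondrial glutamate carrier, read 893, 740.06 and 710.28 in d/d livers, against 1256, 1136 and 1173 in f/f livers. Its groups were separate, with a log2 difference of -0.59 ± 0.12 (limma, Benjamini-Hochberg adjusted p = 0.193). Slc25a15, which carries ornithine into mitochondria for Otc, read 2029, 2167 and 2228 in d/d livers, against 2801, 2936 and 2484 in f/f livers. All d/d arrays lay below all f/f arrays, with a log2 difference of -0.31 ± 0.11 (limma, Benjamini-Hochberg adjusted p = 0.509). Slc25a29, a carrier of basic amino acids, lay the other way, at 705, 657 and 549 in d/d livers, against 394, 386 and 416 in f/f livers. Its log2 difference was 0.65 ± 0.13 (limma, Benjamini-Hochberg adjusted p = 0.152). Slc25a13, or citrin, which sends aspartate out of mitochondria to Ass1, averaged 1164 ± 42.4 in d/d livers and 1356.5 ± 131 in f/f livers (SD, n = 3 each), with a log2 difference of -0.20 ± 0.11. Car5a, the mitochondrial carbonic anhydrase that supplies bicarbonate to Cps1, averaged 473 ± 27.7 in d/d livers and 395 ± 92.7 in f/f livers, with 0.28 ± 0.16 and overlapping groups. Without f/f replicate 3 the log2 differences of Slc25a22, Slc25a15, Slc25a29 and Slc25a13 were -0.60, -0.38, 0.67 and -0.28, that of Car5a was 0.15, and 0 of the 9 genes passed.

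Of the enzymes of ornithine, arginine and polyamines, 17 of 23 listed genes were tested, 0 passed, and 3 had an unadjusted p under 0.05, as did 7.84% of all genes. Oat, ornithine aminotransferase, which turns ornithine into a precursor of glutamate and proline and is known from pericentral hepatocytes, had the largest difference among them. It read 3432, 3644 and 3229 in d/d livers, against 6991, 6509.53 and 5166 in f/f livers. The groups were widely separated, with the d/d mean at 0.552 times that of f/f. The log2 difference was -0.80 ± 0.14 (limma, Benjamini-Hochberg adjusted p = 0.119), and without f/f replicate 3 it was -0.93 ± 0.10 and passed (adjusted p = 0.0111). Of all genes 85 passed without that array, against 13 with it. Prodh, which breaks down proline, had -0.28 ± 0.11, and Gamt, the last enzyme of creatine synthesis, 0.32 ± 0.10. The groups of both were separate, Prodh with d/d below f/f, as for 6.79% of all genes, and Gamt with d/d above, as for 1084 of 13718. The other arginase, Arg2, lay under the dim filter.

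Among genes of ammonia and glutamine handling, 5 of 8 listed were tested, 0 passed, and 0 had an unadjusted p under 0.05 (limma). Glul, glutamine synthetase, which takes up the ammonia that escapes the cycle around the central vein, read 3044, 2722 and 3129 in d/d livers, against 3881, 3509 and 2626 in f/f livers. The groups overlapped through the low value of f/f replicate 3, and the log2 difference was -0.12 ± 0.16. Without that array it was -0.28, with an unadjusted p of 0.0336 in limma, the 1 gene of the 5 under 0.05 there. Gls2, the liver glutaminase, was not analysed here.

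**Figure D4:**
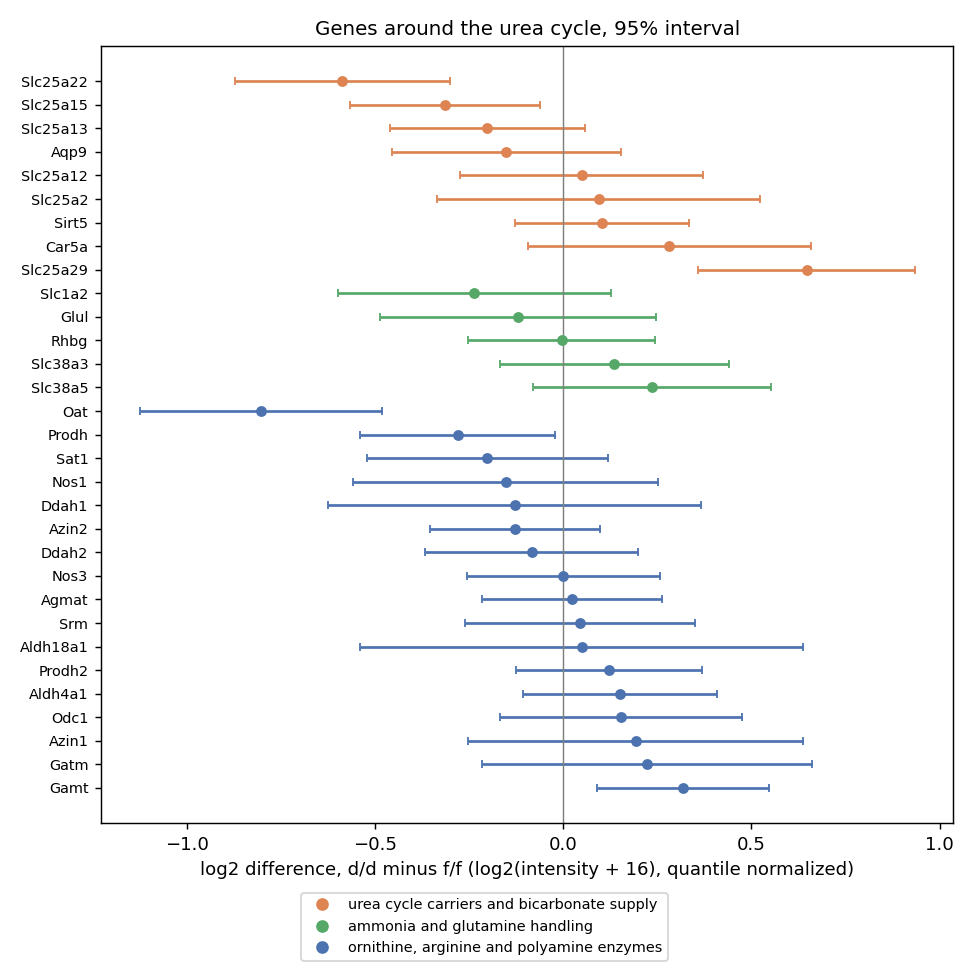
Log2 difference, d/d minus f/f, with its 95% interval for the tested carriers (orange), ammonia and glutamine genes (green) and ornithine, arginine and polyamine enzymes (blue) around the cycle. Oat (-0.80), Slc25a22 (-0.59) and Slc25a29 (0.65) lie farthest from 0, and none of the genes drawn passed an adjusted p of 0.05.

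Amino acid breakdown supplies the nitrogen that the cycle handles. Of 44 listed enzymes 39 were tested, 0 passed, and 9 had an unadjusted p under 0.05, 6 lower and 3 higher in d/d livers, with a median difference of -0.039. Over all genes 3.07% lay under it as lower and 4.77% as higher. Aass, which starts lysine breakdown, averaged 1759 ± 48.6 in d/d livers and 2809 ± 161 in f/f livers (SD, n = 3 each). Its log2 difference of -0.63 ± 0.10 did not pass (limma, Benjamini-Hochberg adjusted p = 0.103), and passed without f/f replicate 3 at -0.64 (adjusted p = 0.0413). Cth, which makes cysteine from cystathionine, also passed without that array, at -0.64 (limma, Benjamini-Hochberg adjusted p = 0.0353), and had -0.43 ± 0.17 with it (adjusted p = 0.595). Aass and Cth were then among 85 passing genes, where 13 passed with all arrays. Kynu and Afmid, both of tryptophan breakdown, had -0.45 ± 0.12 and 0.54 ± 0.13, in opposite directions.

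Of the receptors and transcription factors listed for urea cycle genes, 16 of 17 were tested, 0 passed, and 2 had an unadjusted p under 0.05, both higher in d/d livers, where 4.77% of all genes did in that direction. Klf15, a fasting-induced regulator of amino acid breakdown, averaged 1511 ± 73.6 in d/d livers and 1134.5 ± 133 in f/f livers, with a log2 difference of 0.44 ± 0.12 (limma, Benjamini-Hochberg adjusted p = 0.345). Nr3c1, the glucocorticoid receptor, had 0.29 ± 0.10, with separate groups, d/d above f/f, as for 1084 of the 13718 genes tested. Without f/f replicate 3 these were 0.34 and 0.25.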

How the data were processed

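RNA of 6 livers, 3 Mig-6 d/d and 3 Mig-6 f/f by the genotype and replicate number in their titles, was labelled with biotin and measured on Affymetrix arrays, per the labels' protocols. The authors deposited 1 linear intensity for each probe set and array. How the authors summarized, background-corrected and scaled them, and the genome build, are not given in the sources used here. Array number limits the precision.

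Of 45101 probe sets, 34945 had 1 symbol in the platform annotation. Intensities were taken as log2(intensity + 16) and quantile normalized, as array medians differed by up to 0.185. Each gene was represented by its brightest probe set. Genes were left out if that probe set lay among the lowest 40% of all probe sets by mean (intensity 48.4), which left 13718 genes. The genotype test used limma 3.58.1 (lmFit, eBayes) under R 4.3.3, adjusted by Benjamini-Hochberg, threshold 0.05. The test was checked on simulated data. Alternatives covered scaling, dim filter, probe set choice, variance model, array weights, the replicate block, pseudocounts of 1 and 64 and each array left out.

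Members, 19 lists and the rule for named genes were chosen with earlier results of these data known. The rule names all members, Errfi1, 8 fixed neighbours and the 2 genes most like each of 5 cycle enzymes. It adds from each pathway list at most 3 genes past the adjusted threshold, then at most 3 by smallest unadjusted p under 0.05. Cth, Apoa4 and cell type markers such as Fabp2 were named besides. No symbol-sharing probe set was named. Figures used matplotlib 3.10.9.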

Additional observations from a re-analysis of the deposited data

How the results depend on the processing

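The count of members that passed was 0 in the fit as reported and under the values as deposited, no dim filter, a dim filter at 60%, the probe set with the largest spread, the replicate block, a pseudocount of 1 and all probe sets tested, with 2 members at an unadjusted p under 0.05 in each (limma). It was 1, Got1, with a common median, with averaged probe sets, with a pseudocount of 64 and at an adjusted p of 0.1, and 2, Got1 and Asl, with trend and robust and with array weights. With 1 array left out it ran from 0 to 1. The count over all genes was 13 in the fit as reported, with a dim filter at 60% and with the probe set of largest spread. It was 14 as deposited, with a common median and with no dim filter. Averaged probe sets gave 19, a pseudocount of 64 gave 16, a pseudocount of 1 gave 11, and all probe sets tested gave 17. It was 21 with trend and robust and at an adjusted p of 0.1, 215 with array weights, 6 with the replicate block, and 4 to 85 with 1 array left out. In their deviations from the genotype mean, same-numbered arrays correlated at -0.0033, -0.14 and -0.47, and differently numbered arrays at -0.47 to 0.43. With 3 arrays per genotype these values cannot show whether same-numbered arrays were handled together, and the meaning of the numbers is not known. Signs turned for Gpt2 with averaged probe sets (-0.029) and the probe set of largest spread (-0.016), for Gpt with the probe set of largest spread (-0.059), for Ass1 with array weights (0.046) and without f/f replicate 3 (0.063), and for Arg1 without f/f replicate 1 (0.012). Over the fits that dropped an array, Ass1 ran from -0.20 to 0.063 and Arg1 from -0.069 to 0.012. The cause was not tested. The median difference of the members ran from -0.047 with the probe set of largest spread to 0.047 without f/f replicate 3. The median of all genes was -0.031 as deposited and -0.010 with a common median.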

Other observations

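Of 13 listed periportal genes 11 were tested, and 1, G6pc, passed as lower in d/d livers, while 6 had an unadjusted p under 0.05, 2 lower and 4 higher, where 3.07% of all genes lay under it as lower and 4.77% as higher, with a median difference of 0.24 (limma after Benjamini-Hochberg). Aldh1b1, an aldehyde dehydrogenase of mitochondria, read 524, 501 and 637 in d/d livers, against 195, 338 and 144 in f/f livers, a log2 difference of 1.34 ± 0.28 (limma, Benjamini-Hochberg adjusted p = 0.182). Hsd17b13, a lipid droplet enzyme, averaged 6928 ± 304 in d/d livers and 4684 ± 593 in f/f livers (SD, n = 3 each). In the other direction, G6pc averaged 1477.5 ± 260 in d/d livers and 3547 ± 222 in f/f livers. Its log2 difference was -1.24 ± 0.14 (limma, Benjamini-Hochberg adjusted p = 0.0251). Etnppl averaged 643 ± 187 in d/d livers and 1442 ± 367 in f/f livers. Its groups were separate, with a log2 difference of -1.12 ± 0.25 (limma, Benjamini-Hochberg adjusted p = 0.215). Of 14 listed pericentral genes 12 were tested, 0 passed, and 5 had an unadjusted p under 0.05, all lower in d/d livers, against the same 3.07% of all genes, with a median of -0.20. Of these, Oat is also an enzyme of ornithine, and Cyp7a1 and Gulo had log2 differences of -1.01 ± 0.22 and -0.39 ± 0.10. Without f/f replicate 3 the medians were 0.16 and -0.30, and 3 periportal genes (G6pc and Etnppl lower, Apoa4 higher) and Oat passed. In that fit 85 of all genes passed, against 13 with all arrays.

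Markers of other cell types gave 0 passing genes in any of 9 lists, and 3 of their genes had an unadjusted p under 0.05 (limma), where 7.84% of all genes did. These were 2 of the 3 tested genes of intestine or kidney, both lower in d/d livers, and 1 of the 6 tested genes of lymphocytes and neutrophils, higher in d/d livers. Summed intensities overlapped in 8 of the lists. They were 1579 to 1834 in d/d livers and 1454 to 1758 in f/f livers for endothelial cells, and 1029 to 1246 in d/d livers and 1066 to 1219 in f/f livers for stellate cells and fibroblasts. Lymphocytes and neutrophils gave 501 to 601 in d/d livers and 446 to 660.06 in f/f livers, and red blood cells 838 to 1014 in d/d livers and 859 to 998 in f/f livers. Bile duct markers gave 225 to 258 in d/d livers and 187 to 269.54 in f/f livers. Adipocyte markers gave 153 to 178.5 in d/d livers and 170.28 to 261 in f/f livers, with Adipoq and Lep under the filter, and pancreatic acinar markers 414 to 540.42 in d/d livers and 421 to 499 in f/f livers.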
